A study of Mus musculus with 6 samples.

Results

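The sodium-potassium ATPase of skeletal muscle was examined through 7 genes, the beta subunit genes Atp1b1, Atp1b2, Atp1b3 and Atp1b4, the FXYD genes Fxyd1 and Fxyd5, and Nkain1, out of 24411 genes in the table. They were selected by gene symbol with the difference between the genotypes already known, and Nkain1 was included because it was lower in the knockout. For that reason their values are given as a description, and nothing is read from the counts of calls among them. RNA was sequenced from extensor digitorum longus (EDL), a fast-twitch muscle of the hindlimb, of 3 mAktDKO mice and 3 control mice (flox). All 6 mice were labelled C57BL/6J at the age of 50 weeks and carried floxed alleles of Akt1 and Akt2, which encode the Akt kinases downstream of insulin. The mAktDKO mice also carried Mlc1f-Cre, a Cre recombinase knocked in behind a myosin light chain promoter that is active mainly in fast fibres and little in satellite cells, and recombination in the other cells of the muscle was not measured here. Each library was labelled as a separate sample. The labels used here give no sex, and the methods of the study name males as the default.

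The sodium-potassium ATPase exports sodium and imports potassium at the cost of ATP, and in muscle it restores the gradients on which the action potential depends. A catalytic alpha subunit does the transport. A beta subunit, a glycoprotein with a single membrane span, is needed to fold alpha and bring it to the membrane. Small FXYD proteins bind the pump and tune its affinity, and NKAIN proteins are membrane proteins that bind the beta subunit.

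Totals of estimated counts were between 13738795 and 15445523 per mouse, so 3 counts, the smallest level that can be shown, lay at 0.18 to 0.227 CPM (counts relative to the library total, here after scaling by TMM, a trimmed mean of ratios between libraries). This floor covers counting error only. Control mouse 2 stood apart from the other controls, with a median absolute log2 difference of 0.22 and 0.23 to them over the tested genes, against 0.15 between these other two. Akt2 was 51.0 ± 1.82 CPM (SD, n = 3) in mAktDKO muscle and 149 ± 20.3 CPM (SD, n = 3) in control muscle, a log2 fold change of -1.55 (edgeR adjusted p = 0.000923). Akt1 was 55.6 ± 3.89 and 66.1 ± 0.56 CPM (SD, n = 3 each, adjusted p = 0.1145 in edgeR), and counts per gene cannot show how much of its floxed part was lost. All 6 fast fibre markers of the fixed list were expressed, Myh4 at a mean of 49940 CPM in mAktDKO muscle and 50570 CPM in control muscle. The summed fast fibre markers were at 76930 to 85510 CPM in mAktDKO muscle and at 85820 to 94260 CPM in control muscle. Fewer fibres and less RNA per fibre cannot be told apart in RNA of a whole muscle.

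Across the 7 genes, Nkain1 was 1.93-fold lower and Fxyd5 2.03-fold higher in mAktDKO muscle, while Atp1b1 was slightly lower. The mAktDKO and control values of these 3 genes did not overlap. The other 4 genes, Atp1b2, Atp1b3, Atp1b4 and Fxyd1, overlapped between the groups. All 7 passed the filter on low counts. In the edgeR fit 0 of the 7 had an adjusted p under 0.01, where 0.0233% of the 12892 tested genes did. With an adjusted p under 0.05 there was 1, Nkain1, which was lower, against 1.18% of the tested genes (0.264% higher and 0.915% lower). At an unadjusted p under 0.05 there were 3 against 24.5%. Nkain1 was included for being lower, so its passing a threshold in any of these fits is no test of it. DESeq2 gave 1 of the 7 under 0.01, Nkain1, where it gave 3.55% of the 9616 genes with an adjusted p. Without the filter edgeR also gave Nkain1 under 0.01, with 0.184% of the genes then tested. Under 0.05, leaving out any one mAktDKO mouse gave 0 of the 7 and 0.023% to 0.038% of all genes. There were 2, Nkain1 and Fxyd5, with library totals (1.63% of all genes), without the filter (2.19%), with at least 10 counts in every mouse (2.18%) and without control mouse 4 (2.96%). Groups without overlap were found for 3 of the 7 genes (42.9%) and for 31.1% of all tested genes. Fxyd5 was the 1 that was higher and Atp1b1 and Nkain1 the 2 that were lower, against 14.6% and 16.6% of all tested genes. With library totals, a check chosen after seeing the data, 4 of the 7 did not overlap. Atp1b2, Fxyd1 and Fxyd5 were then higher and Nkain1 lower. The share of all tested genes under that scaling is not given here.

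**Figure D1:**
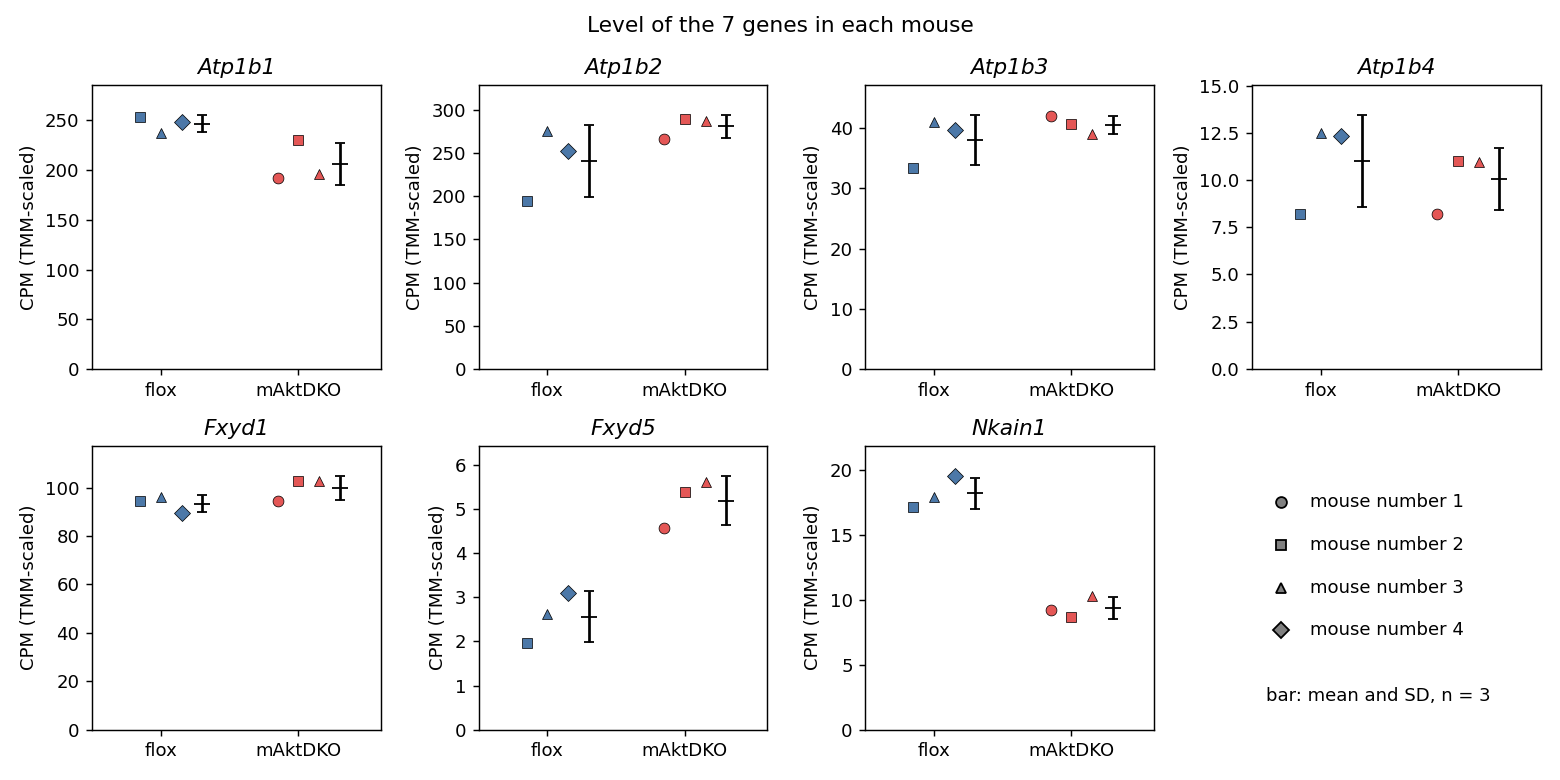
Level of each of the 7 genes in each mouse in CPM scaled by TMM, on axes that start at 0. Markers give the number of the mouse, and the bar is the mean with the SD of 3 mice. Nkain1 was at 8.68 to 10.3 CPM in mAktDKO muscle and at 17.2 to 19.6 CPM in control muscle, and Fxyd5 was at 4.56 to 5.62 and 1.96 to 3.10 CPM.

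The stretches before the first annotated start of Atp1b1 and Nkain1, the pair of genes that were lower without overlap, are shown, from RefSeq (GRCm38.p6, the build also known as mm10), so that their base composition can be seen. Each is written 5′ to 3′ on the minus strand of the chromosome and ends at the base before the first start of the gene in RefSeq or GENCODE. Capitals mark an E-box (CANNTG, read on both strands), the element bound by myogenic and other helix-loop-helix factors.
Atp1b1, chr1:164458356-164458605: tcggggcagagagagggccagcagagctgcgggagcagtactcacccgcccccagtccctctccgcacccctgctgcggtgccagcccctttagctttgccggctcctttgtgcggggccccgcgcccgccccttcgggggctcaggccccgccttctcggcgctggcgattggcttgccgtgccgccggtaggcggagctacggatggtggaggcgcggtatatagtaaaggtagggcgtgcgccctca
Nkain1, chr4:130574174-130574286: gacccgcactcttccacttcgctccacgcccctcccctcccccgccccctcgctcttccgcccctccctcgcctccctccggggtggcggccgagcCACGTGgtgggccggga
In the 250 bases before the RefSeq start, the window of Nkain1 held 36 CpG dinucleotides, more than 97.4% of the 32851 windows of the same length, and that of Atp1b1 held 24. The median was 6. GC content was 80.4% for Nkain1 and 70.4% for Atp1b1. Of the Nkain1 window, 113 bases lie before the first annotated start, and the rest lie inside the gene in GENCODE. The Atp1b1 window lies wholly before its gene. The window of Fxyd5 held 3 CpG dinucleotides and 55.6% GC, but 69 of its bases lie in the neighbouring gene Fxyd7 on the same strand, so it is not set against the other windows and its sequence is not shown. Nkain1 had 2 E-boxes in its window, at 154 and 104 bases before the RefSeq start. The first stands in the stretch shown, and the other lies inside the gene in GENCODE. These features were not particular to the pair. Both windows of Atp1b3, whose groups overlapped, held 24 and 35 CpG dinucleotides, at 73.6% and 76.8% GC, and 1 E-box each. Atp1b4 had 2 E-boxes, and 66.2% of all windows had at least 1. The forkhead letters GTAAACA were searched on both strands because FoxO factors are targets of Akt. They were absent from the windows of Atp1b1, Atp1b3, Atp1b4, Fxyd1 and Nkain1, and present in 3.17% of all windows. The TATA box letters TATAAA, held by 12.4% of all windows, were absent from the same windows. Of these, the Fxyd1 window and the Atp1b3 window with 35 CpG dinucleotides lie inside their own genes in GENCODE. A match or its absence describes these letters in this window only.

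Atp1b1 encodes beta 1, the most widely expressed beta subunit. It spans 164437109 to 164458355 on chromosome 1 of mm10 (minus strand, 6 exons). It was at 192, 230 and 196 CPM in mAktDKO mice 1, 2 and 3, and at 254, 237 and 249 CPM in control mice 2, 3 and 4. All mAktDKO mice lay below all control mice, with mAktDKO mouse 2 nearest to the lowest control mouse. The means were 206 ± 20.9 and 247 ± 8.51 CPM (SD, n = 3 each), a log2 fold change of -0.26 with a standard error of 0.092. Scaled by library totals instead, its groups overlapped, at 194 to 251 CPM in mAktDKO muscle and 230 to 240 CPM in control muscle, and the log2 fold change was -0.12. That scaling moved the median of all genes from 0.017 to 0.16, and relative to it Atp1b1 stood at -0.27 under both. The gene overlaps Nme7 on the other strand by 617 bases.

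Atp1b2 encodes beta 2, which in the brain is also known as the adhesion molecule on glia. It lies on chromosome 11 from 69599736 to 69605942 (7 exons). It was at 266, 289 and 287 CPM in mAktDKO muscle and at 194, 275 and 252 CPM in control muscle. Control mouse 2 was the lowest of the 6, and the groups overlapped at control mouse 3. The means were 281 ± 12.9 and 241 ± 41.7 CPM (SD, n = 3 each), a log2 fold change of 0.22 with a standard error of 0.12. It was 0.088 when control mouse 2 was set aside. With library totals the groups did not overlap, at 283 to 315 CPM in mAktDKO muscle and 180 to 268 CPM in control muscle.

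Atp1b1 and Atp1b2 can be set against each other within a library, where the scaling cancels. The ratio of Atp1b2 to Atp1b1 counts was 1.38, 1.26 and 1.46 in mAktDKO muscle and 0.766, 1.16 and 1.01 in control muscle. Every mAktDKO mouse had a higher ratio than every control mouse, with control mouse 3 nearest. Both genes were chosen with the contrast known, and 31.1% of single tested genes did not overlap between the groups either.

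Atp1b3 encodes beta 3 (chromosome 9, 96332655 to 96364442, 7 exons). It was at 41.9, 40.6 and 39.1 CPM in mAktDKO muscle and 33.3, 41.0 and 39.7 CPM in control muscle. Control mouse 2 was lowest, and the groups overlapped. The log2 fold change was 0.094 with a standard error of 0.097, and 0.0059 without control mouse 2. Of the 37-base stretches of its transcripts, 13.8% also occur in the pseudogene Gm1848, so its reads could be divided by the authors' counting. Of those of Fxyd5, 1.19% occur in another gene, among them Mir7050, a miRNA gene inside Fxyd5. For Atp1b1, Atp1b2, Atp1b4, Fxyd1 and Nkain1 no such stretch was shared with another gene.

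Atp1b4 encodes a member of the beta family that in placental mammals resides in the inner nuclear membrane of muscle and is no longer a part of the pump. It lies on the X chromosome from 38316184 to 38336769 (plus strand, 8 exons). It was at 8.17, 11.0 and 11.0 CPM in mAktDKO muscle and at 8.17, 12.5 and 12.3 CPM in control muscle. One mouse of each genotype, mAktDKO mouse 1 and control mouse 2, was low, and the groups overlapped. The log2 fold change of -0.13 had a standard error of 0.19, and it was 0.0053 with library totals and 0.0018 without mAktDKO mouse 1, so no direction can be given.

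As shares of beta transcripts per length, where each count is divided by the median length of the coding transcripts of the gene in GENCODE, Atp1b1 and Atp1b2 made up most of the pool. Atp1b1 made up 53.0%, 43.3% and 46.4% in control mice 2, 3 and 4, and 39.0%, 41.7% and 38.2% in mAktDKO mice 1, 2 and 3. Atp1b2 made up 36.9%, 45.6% and 42.6% in control muscle and 49.0%, 47.5% and 50.7% in mAktDKO muscle. Neither share overlapped between the genotypes, where 31.1% of single genes did not either, and the shares of these genes are nearly one value, since one falls as the other rises. Atp1b2 exceeded Atp1b1 in the 3 mAktDKO mice and in control mouse 3. Atp1b3 made up 9.42% ± 0.36 (SD, n = 3) of the pool in control muscle and 10.1% ± 0.79 (SD, n = 3) in mAktDKO muscle. Atp1b4 made up 1.29% ± 0.20 and 1.19% ± 0.15 (SD, n = 3 each). The means of Atp1b1 were 47.6% ± 4.98 and 39.6% ± 1.84 and those of Atp1b2 41.7% ± 4.44 and 49.1% ± 1.56 (SD, n = 3 each, control mice first). Without control mouse 2 the control means were 44.8% for Atp1b1 and 44.1% for Atp1b2.

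**Figure D2:**
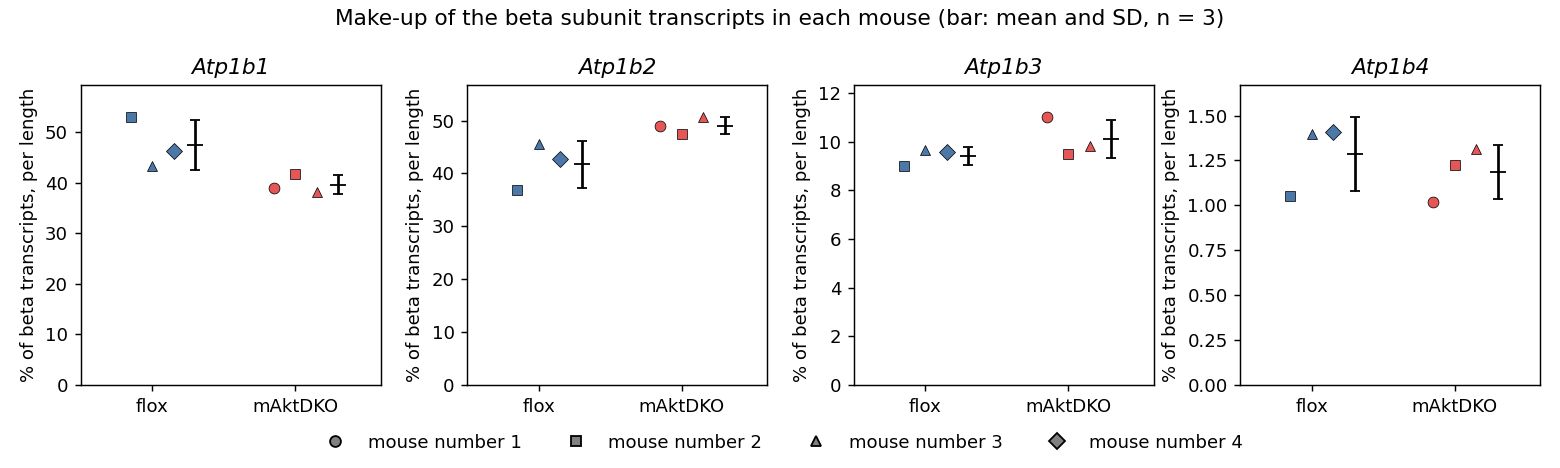
Share of each beta subunit gene in the summed beta transcripts of a mouse, in percent, after division by transcript length. Markers give the number of the mouse and the bar is the mean with the SD of 3 mice. The Atp1b1 share was 43.3% to 53.0% in control muscle and 38.2% to 41.7% in mAktDKO muscle, and the Atp1b2 share was 36.9% to 45.6% and 47.5% to 50.7%.

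The summed beta level was 191, 214 and 199 CPM per kb of transcript in mAktDKO muscle and 185, 212 and 208 CPM per kb in control muscle, so the size of the pool overlapped between the genotypes.

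Fxyd1 encodes phospholemman, the FXYD protein of heart and skeletal muscle, which slows the pump until kinases phosphorylate it. It lies on chromosome 7 from 31051678 to 31057199. It was at 94.3, 103 and 103 CPM in mAktDKO muscle and 94.6, 95.9 and 89.4 CPM in control muscle. The groups overlapped at mAktDKO mouse 1. The means were 99.9 ± 4.85 and 93.3 ± 3.47 CPM (SD, n = 3 each), a log2 fold change of 0.098 with a standard error of 0.077. With library totals it was 0.24 and the groups did not overlap, but relative to the median of all genes it was 0.080, near the value of 0.081 found with TMM.

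Fxyd5 encodes dysadherin, an FXYD protein with a long extracellular part that is known from epithelia, endothelium and leukocytes and modulates adhesion as well as the pump. It lies on chromosome 7 from 31032722 to 31042481, and its end is 9196 bases from Fxyd1. Its estimated counts were 72, 90 and 82 in mAktDKO muscle and 28, 36 and 41 in control muscle. In CPM these were 4.56, 5.39 and 5.62 against 1.96, 2.62 and 3.10, with every mAktDKO mouse above every control mouse. The means were 5.19 ± 0.56 and 2.56 ± 0.57 CPM (SD, n = 3 each). The log2 fold change was 1.02 with a standard error of 0.21, and 0.86 without control mouse 2. Within a library, the ratio of Fxyd5 to Fxyd1 counts was 0.0484, 0.0525 and 0.0547 in mAktDKO muscle and 0.0207, 0.0274 and 0.0347 in control muscle.

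Marker lists of other cells were read beside Fxyd5, and no marker of the 3 lists given here passed an adjusted p of 0.05 in edgeR. The 5 leukocyte and macrophage markers, all of them detected, summed to 52.5 to 64.8 CPM in mAktDKO muscle and 35.4 to 51.5 CPM in control muscle. Control mouse 2 had the lowest sum, and control mice 3 and 4, at 51.47 and 51.15 CPM, lay close to the lowest mAktDKO mouse. All 5 had a positive log2 fold change, with a median of 0.51, and the groups did not overlap for Cd68 at 0.93 (SE 0.33, edgeR adjusted p = 0.141), Ptprc at 0.64 (SE 0.21, edgeR adjusted p = 0.126) and Adgre1 at 0.51 (SE 0.19, edgeR adjusted p = 0.149). The 5 fibro-adipogenic markers summed to 18220 to 21700 CPM and 7282 to 18340 CPM, with control mouse 2 at the lowest value and Col1a1 as the largest part of the sum. All 5 had a positive log2 fold change, with a median of 0.49, and the groups did not overlap for Dcn at 0.57 (SE 0.12, edgeR adjusted p = 0.0539) and Pdgfra at 0.25 (SE 0.094, edgeR adjusted p = 0.148). The 5 endothelial markers summed to 394 to 471 CPM and 329 to 438 CPM, with 3 of 5 higher and 2 lower. Of all tested genes, 31.1% did not overlap between the groups. No marker of these lists was at 0, and their part in the level of Fxyd5 was not tested.

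On chromosome 7, Fxyd5, Fxyd7, Fxyd1, Lgi4 and Fxyd3 are neighbours in this order within 30 kb of Fxyd1 or Fxyd5. Lgi4, which encodes a protein secreted by Schwann cells, had a log2 fold change of 0.14 (SE 0.13, edgeR adjusted p = 0.521). Fxyd7 had 1 to 7 counts per mouse and Fxyd3 had 6 to 14, so neither was tested. The locus lies 3.44 Mb from Akt2, one of the floxed genes, on the same chromosome, and the labels give the floxed allele to both groups. Hbb-bs, a globin gene farther along this chromosome, had 146 to 370 counts in the mAktDKO mice and 0 in each control mouse, and whether the groups differ in the strain origin of chromosome 7 was not tested.

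Nkain1 encodes a membrane protein of the NKAIN family, which binds the beta 1 subunit and is otherwise known mainly from neurons. It spans 130531602 to 130574173 on chromosome 4 (minus strand, 7 exons). Its estimated counts were 146, 145 and 151 in mAktDKO muscle and 246, 246 and 259 in control muscle. Scaled, these were 9.25, 8.68 and 10.3 CPM against 17.2, 17.9 and 19.6 CPM. The mice of each genotype lay close together, and the lowest control mouse was well above the highest mAktDKO mouse. The means were 9.43 ± 0.85 and 18.2 ± 1.22 CPM (SD, n = 3 each), a log2 fold change of -0.95 with a standard error of 0.11. It was between -1.04 and -0.90 when any one mouse was left out. The 5 Schwann cell markers, all detected, summed to 237 to 322 CPM in mAktDKO muscle and to 216 to 254 CPM in control muscle, with 4 of 5 higher. The 6 fast fibre markers all had a negative log2 fold change, with a median of -0.20, but 0 of them passed an adjusted p of 0.05 in edgeR. Myh4, the most abundant, was at -0.018 (SE 0.12), and the groups overlapped for Myh4, Actn3 and Tnnt3. They did not overlap for Myh1 at -0.51 (SE 0.10, edgeR adjusted p = 0.0539), Pvalb at -0.41 (SE 0.12, edgeR adjusted p = 0.0966) and Mybpc2 at -0.24 (SE 0.10, edgeR adjusted p = 0.181). Their part in the level of Nkain1 was not tested.

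Genes with the nearest pattern were sought for Fxyd5 and Nkain1, the pair with the largest differences, by the root mean square difference of centred log2 CPM over the 6 mice. The nearest to Nkain1 were Ntng2 at 0.0848, Morn4 at 0.0938 and Mpp3 at 0.0959. The nearest to Fxyd5 were Grik4 at 0.0846, Psat1 at 0.0898 and Chrdl1 at 0.108. Ntng2 encodes a netrin-G, Mpp3 a membrane scaffold of the MAGUK family, Grik4 a kainate receptor subunit, Psat1 an enzyme of serine synthesis and Chrdl1 an antagonist of BMP ligands.

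Per kb of transcript, Fxyd1 had the highest level of the 7 genes in control muscle, at 173 ± 6.43 CPM per kb (SD, n = 3). It was followed by Atp1b1 at 95.6 ± 3.30 and Atp1b2 at 84.7 ± 14.7 CPM per kb, whose values overlapped between mice. Atp1b3 was at 19.1 ± 2.06 and Nkain1 at 15.2 ± 1.01 CPM per kb, without overlap. Fxyd5 at 3.13 ± 0.70 and Atp1b4 at 2.62 ± 0.58 CPM per kb overlapped again. In mAktDKO muscle Atp1b2 was at 98.7 ± 4.53 and Atp1b1 at 80.0 ± 8.12 CPM per kb, with no overlap between them. Control mouse 3 also had Atp1b2 above Atp1b1, at 96.9 and 91.9 CPM per kb, and in counts without division by length control mouse 4 did as well, so only control mouse 2 had the opposite order both per length and in counts. Nkain1 at 7.84 ± 0.70 and Fxyd5 at 6.35 ± 0.68 CPM per kb were then neighbours without overlap, and Atp1b4 was lowest at 2.40 ± 0.39 CPM per kb. The places of Fxyd1 and Fxyd5 depend on the length used. Over the union of their exons, a length chosen after seeing the data, Fxyd1 was at 90.5 ± 3.36 CPM per kb in control muscle, below the mean of Atp1b1, and Fxyd5 at 0.68 ± 0.15 CPM per kb was the lowest of the 7 (SD, n = 3 each).

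**Figure D3:**
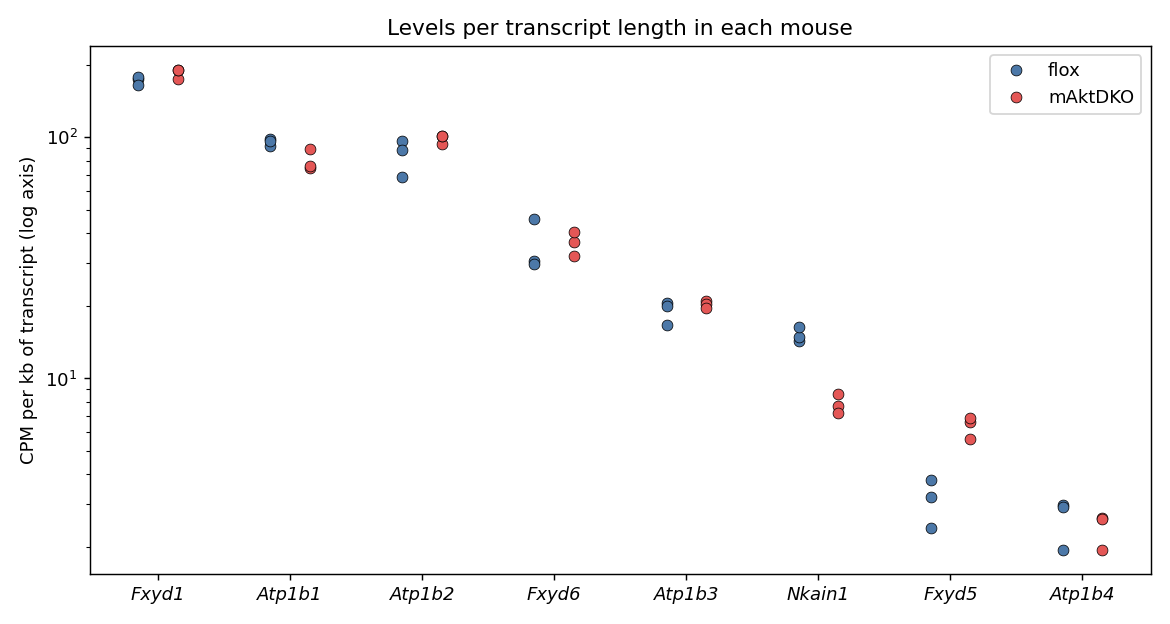
Levels of the 7 genes and of Fxyd6 in each mouse in CPM per kb of transcript, on a logarithmic axis, ordered by the control mean. Points are single mice. Fxyd1 leads at 173 CPM per kb in control muscle, and Atp1b2 lies above Atp1b1 in all 3 mAktDKO mice and in control mouse 3.

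The variation between mice of one genotype was estimated as the biological coefficient of variation of edgeR. The fit draws the value of each gene towards a trend over all genes, so it is not the observed variation of these mice. This fitted value was 8.52% for Fxyd1, 9.56% for Atp1b3, 9.74% for Nkain1 and 9.86% for Atp1b1. It was 12.3% for Atp1b2, 14.5% for Fxyd5 and 16.0% for Atp1b4.

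Partners and relatives of the 7 genes (other FXYD and NKAIN genes, proton-potassium pumps, sodium channels, sodium-coupled transporters, anchors and kinases) were taken from lists of 43 genes, of which 33 passed the filter. Of these 33 genes, 0 passed an adjusted p of 0.01 or 0.05 in edgeR, and 4 had an unadjusted p under 0.05, against 24.5% of all tested genes. Cav3 alone was under 0.05 in edgeR without the filter (adjusted p = 0.0374), with at least 10 counts in every mouse (0.0488) and without control mouse 4 (0.0472). These fits covered 39, 31 and 34 list genes, and 2.19%, 2.18% and 2.96% of all genes were under 0.05 in them. DESeq2 gave 2, Scn4b and Cav3, under 0.01 among the 29 list genes for which it gave an adjusted p, against 3.55% of all genes. The log2 fold change was positive for 15 and negative for 18, with a median of -0.046 against 0.017 for all tested genes.

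Of the other FXYD genes only Fxyd6, which encodes phosphohippolin, passed the filter, with a log2 fold change of 0.038 (SE 0.17, edgeR adjusted p = 0.908). Fxyd2, Fxyd3 and Fxyd7 had few counts and Fxyd4 had 0. Nkain2 was the only other NKAIN gene tested, at 1.25 ± 0.44 CPM in mAktDKO muscle and 0.75 ± 0.21 CPM in control muscle (SD, n = 3 each, adjusted p = 0.285 in edgeR). Its log2 fold change of 0.72 had the opposite sign to that of Nkain1, with a standard error of 0.39, and its groups overlapped. Nkain3 had 0 counts. Of the related proton-potassium pumps of stomach and colon, Atp4a and Atp4b had 0 counts and Atp12a had 1 count in 1 mouse.

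The sodium channel that opens the action potential in muscle is formed by Scn4a, and Scn3b and Scn4b encode accessory subunits of sodium channels. Scn4b was at 434 ± 34.8 CPM in mAktDKO muscle and 583 ± 60.8 CPM in control muscle (SD, n = 3 each), without overlap. Its log2 fold change was -0.42 (SE 0.10, edgeR adjusted p = 0.0693), and DESeq2 gave an adjusted p of 0.00468. Scn4a had one of -0.14 (SE 0.13, edgeR adjusted p = 0.503) and Scn3b, at 2.92 ± 0.82 and 2.17 ± 0.58 CPM (SD, n = 3 each), one of 0.43 (SE 0.29, edgeR adjusted p = 0.378), and the groups of both overlapped. Leaving out 1 mouse gave -0.24 to -0.0088 for Scn4a, nearest to 0 without control mouse 2, and 0.18 to 0.58 for Scn3b, lowest without mAktDKO mouse 2. Of the 5 sodium channel genes, 4 had a negative log2 fold change, with a median of -0.15.

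Of the 12 tested sodium-coupled transporters, 7 had a positive and 5 a negative log2 fold change, between -0.24 and 0.12. They included Slc38a2, an amino acid carrier, at 0.12, Slc12a2, the sodium-potassium-chloride cotransporter, at 0.11, and Slc20a1, a phosphate carrier, at -0.24 (adjusted p = 0.632, 0.492 and 0.204 in edgeR). Among the 14 anchors, kinases and binding partners of the pump, Ank1, an ankyrin, had a log2 fold change of -0.059 (edgeR adjusted p = 0.674). Cav3, the caveolin of muscle fibres, was at 29.1 ± 3.11 CPM in mAktDKO muscle and 40.8 ± 2.42 CPM in control muscle (SD, n = 3 each, log2 fold change -0.49, adjusted p = 0.0540 in edgeR and 0.0064 in DESeq2). Cav1, the caveolin of endothelium and fat, was at 292 ± 25.4 and 199 ± 48.2 CPM (SD, n = 3 each, log2 fold change 0.55, adjusted p = 0.1005 in edgeR and 0.0121 in DESeq2), without overlap.

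**Figure D4:**
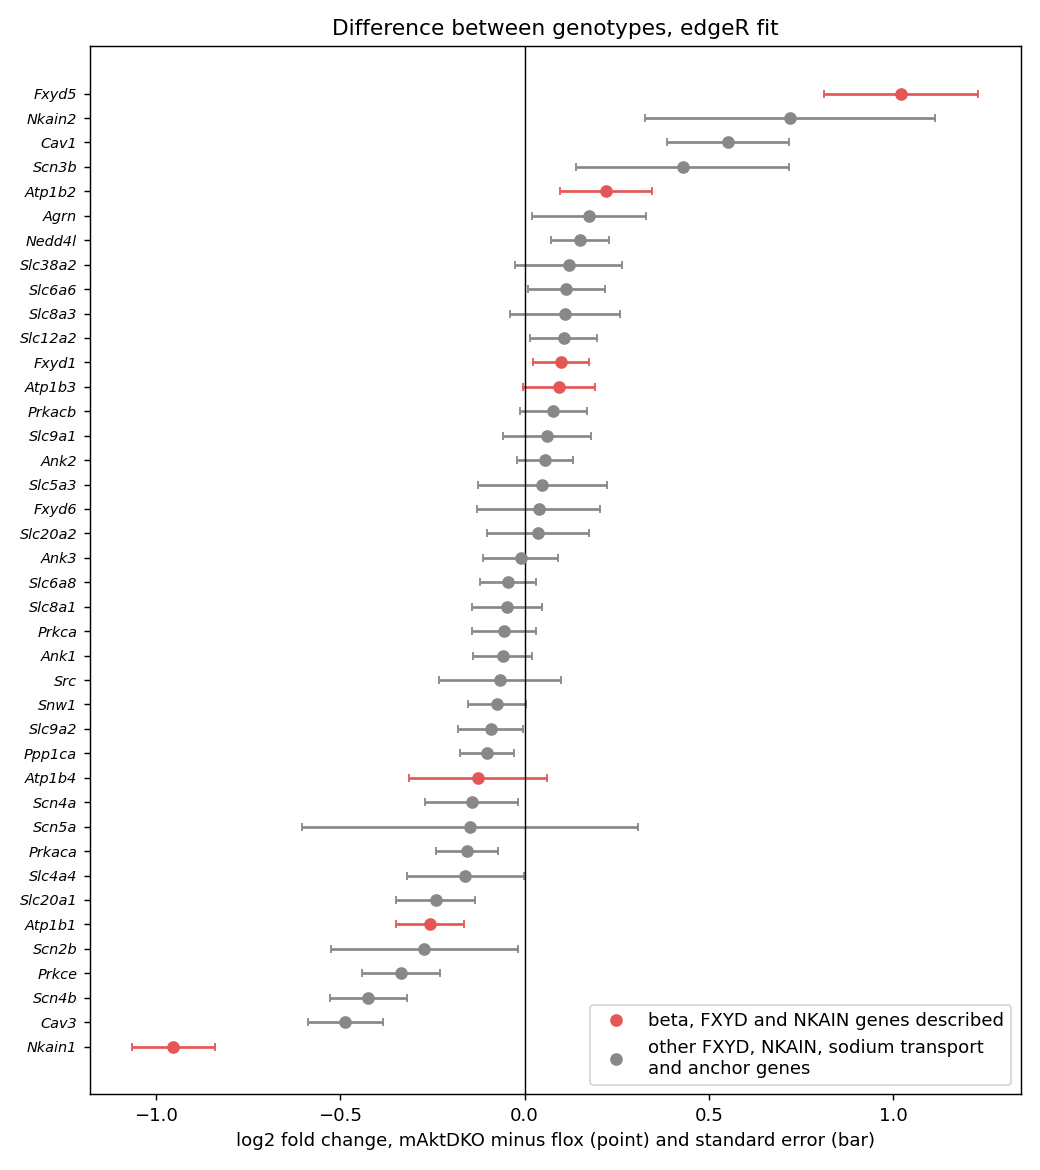
Log2 fold change of the 7 genes (red) and of the 33 tested FXYD, NKAIN, sodium transport and anchor genes of the lists (grey), mAktDKO minus control, with the standard error of the edgeR fit as a bar. Fxyd5 at 1.02 and Nkain1 at -0.95 lie at the ends.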

How the data were processed

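Libraries from ribosome-depleted RNA of EDL kept the strand and were read from both ends over 37 bp. Per the labels, STAR was run on mm10, and RSEM (1.3.1 in the submitters' processing notes) gave expected counts. The authors deposited these estimated counts for 24411 genes without scaling. Whether the counting used the strand is not given in the sources used here. The mAktDKO columns are numbered as in the labels. The control columns run from 2 to 4, were taken only as members of their group, and keep these numbers as names. Each mouse is 1 column and 0 other columns were present.

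Values were rounded to whole numbers. In R 4.3.3, edgeR 4.0.16 removed low genes (filterByExpr, minimum count 10), computed TMM factors and ran its quasi-likelihood test, with Benjamini-Hochberg adjustment over 12892 genes and a threshold of 0.01. The standard error is the log2 fold change divided by the square root of F. Log2 CPM used a prior count of 2. The study used DESeq2, which was run here as an alternative (version 1.42.0). The script was tested on simulated counts. Levels per length used GENCODE M21, which shares the build mm10.

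The genes and lists were chosen with earlier results of these data known, and some list genes are not reported here. Named genes are the 7 genes, Akt1 and Akt2, each list's most abundant gene and up to 2 others with the smallest p (lists of partners and relatives), and the 3 nearest in pattern to the 2 genes with the largest change. Marker genes, neighbours of Fxyd5 and list genes under the filter were named after their values were seen. Alternatives were other scalings, filters, lengths and thresholds and leaving out each mouse. The p-values weigh the difference between the genotypes against the spread between these samples, as modelled by each test. Of the 7 genes, 6 matched the RefSeq promoter table, Atp1b2 being the exception.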

Additional observations from a re-analysis of the deposited data

How the results depend on the processing

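No paired analysis was possible because the numbers in the control data differ from those in the labels. The number of genes called was 3, and it was 32 without the filter, 341 with DESeq2 and 152 when the threshold was 0.05. It ranged from 0 to 8 when one mouse was left out, with 0 in each of the 3 fits without an mAktDKO mouse and 8 without control mouse 2. The lists of partners and relatives had 0 genes called and 2 with DESeq2 (Scn4b and Cav3). Their median log2 fold change of -0.046 became 0.091 with library totals, which moved the median of all genes to 0.16, and was from -0.059 to 0.014 without one mouse.

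With library totals the log2 fold change of Atp1b4 was 0.0053 and that of Ank1 0.077, and neither turned relative to the median of all genes. Without one mouse it was from -0.30 to 0.0018 for Atp1b4, -0.073 to 0.27 for Fxyd6 and -0.019 to 0.21 for Slc38a2, and the cause was not tested. Without division by length the share of Atp1b2 was 52.2% in mAktDKO muscle, that of Atp1b3 7.08% in the control and 7.57% in mAktDKO muscle, and that of Atp1b4 2.03% and 1.86%. Of 84 comparisons of the 7 genes with an alternative, 78 kept their sign and moved by less than the spread between mice, 2 changed sign (Atp1b4) and 4 moved by more. With library totals, a check of overlap chosen after seeing the data, the groups of Atp1b1 overlapped and those of Atp1b2 and Fxyd1 did not. Depth limits Fxyd5, with 28 to 90 counts per mouse, and the genes under the filter.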

Other observations

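The erythrocyte markers were read as a check on blood in the muscle, and Hbb-bs, a beta globin gene on chromosome 7 from 103826534 to 103828096, was singled out after its values were seen. Its estimated counts were 370, 154 and 146 in mAktDKO mice 1, 2 and 3, and it was at 0 in each of the 3 control mice. Hbb-bt, its near-identical neighbour, was detected in all 6 mice, at 16.3 ± 6.67 CPM in mAktDKO muscle and 11.8 ± 2.41 CPM in control muscle (SD, n = 3 each). Alas2, an erythroid enzyme of haem synthesis, was at 5.72 ± 1.77 and 4.35 ± 0.80 CPM (SD, n = 3 each). The 5 erythrocyte markers were all higher and summed to 150 to 320 CPM in mAktDKO muscle and 114 to 168 CPM in control muscle. Hba-a2 was at 119.6 ± 15.9 and 56.8 ± 36.9 CPM (SD, n = 3 each) without overlap, and Hba-a1 at 84.8 ± 55.6 and 74.2 ± 37.2 CPM (SD, n = 3 each) with overlap. Hbb-bs was the 1 marker of the list past an adjusted p of 0.05 in edgeR. RSEM divides reads among globin copies, so the level of a single copy is uncertain. Hbb-bs is 72.8 Mb from Fxyd5 on the same chromosome, which also holds Akt2, and whether the groups differ there in strain origin was not tested.

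The slow fibre markers differed widely between mice of one genotype. They summed to 390 to 855 CPM in mAktDKO muscle and to 326 to 525 CPM in control muscle, with 4 of 5 higher and 0 past an adjusted p of 0.05 in edgeR. The 4 adipocyte markers were all higher, their log2 fold changes had a median of 1.10, and they summed to 19.7 to 66.4 CPM in mAktDKO muscle and 13.8 to 33.1 CPM in control muscle, with 0 past an adjusted p of 0.05 in edgeR.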
